A study of Mus musculus with 6 samples.

Results

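The muscle aquaporins *Aqp4* and *Aqp1* and 7 genes of the dystrophin complex, *Dmd*, *Utrn*, *Dag1*, *Dtna*, *Sntb1*, *Sntb2* and *Sgca*, were examined in RNA-seq libraries of mouse muscle. These 9 genes, of 53084 in the count table, were chosen by their roles at the muscle membrane and with their genotype differences in these same libraries, above all that of *Aqp4*, already known. The comparison was between 3 Tarsl2+/+ (WT) and 3 Tarsl2-/- (KO) male C57BL/6 mice that were 6 weeks old and fed standard chow, 1 library per mouse. The deletion, made in C57BL/6J zygotes with Cas9 and a pair of guides, took out a stretch of *Tarsl2* with exon 3 and is carried by every cell of the animal, and the labels give no other allele or treatment for either group. The labels name the tissue only as muscle, so that the anatomical muscle is not known. The label of Tarsl2-/- mouse 589 has another prefix (KOT1) than those of mice 588 and 591 (KO1), whose meaning is not given.

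Aquaporins are membrane channels that let water pass along osmotic gradients. In skeletal muscle, Aqp4 sits in the sarcolemma of fast fibres, whereas Aqp1 is known mainly from the endothelium of capillaries and from red cells. Dystrophin links the actin cytoskeleton inside the fibre to dystroglycan, which binds laminin outside it, and the sarcoglycans stabilise this link within the membrane. Syntrophins and dystrobrevins attach to the inner side of the complex, and Aqp4 is held at the membrane through this complex.

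Among the 9 genes, *Aqp4* stood apart: its mRNA was 88.1% higher in Tarsl2-/- than in Tarsl2+/+ muscle, with little spread between mice. *Aqp1* and *Sntb1* were also higher on average, but varied so much between mice that the genotypes overlapped. *Dmd*, *Utrn*, *Dtna* and *Sgca* were higher by 14.7% to 29.6%, with no overlap between genotypes, and *Sntb2* and *Dag1* were at nearly the same level in both. All 9 genes had enough counts to be tested in the fit over 15075 genes. *Aqp4* was the only 1 of the 9 past the threshold, an adjusted p under 0.05 over all genes by edgeR's quasi-likelihood test. Over all tested genes 2.27% were past it, 0.896% higher and 1.37% lower in Tarsl2-/- muscle. An unadjusted p under 0.05 by the same test was found for 2983 of these 15075 genes, to be read beside such counts below. In 5 of the 9 genes (*Aqp4*, *Dmd*, *Utrn*, *Dtna* and *Sgca*) the genotypes did not overlap, as in 24.6% of all tested genes. Log2 fold changes are given throughout as Tarsl2-/- over Tarsl2+/+. Their median was 0.25 for the 9 genes and 0.00253 for all tested genes. Because the choice of genes followed from the same contrast, these values describe the 9 genes, and no p-value is given for them.

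**Figure D1:**
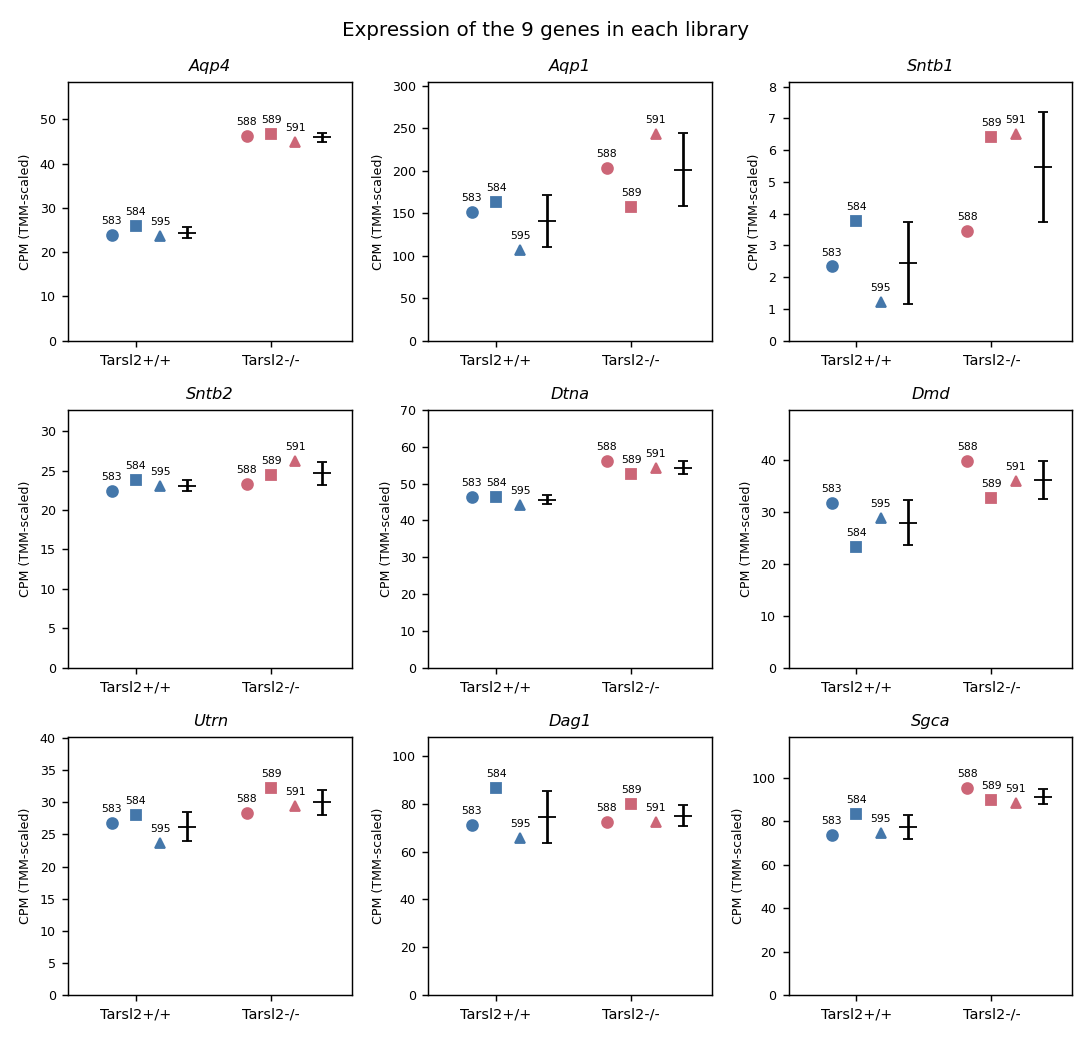
CPM, the counts of a gene scaled to a common library total (vertical axes, from 0), of each of the 9 genes in the 3 Tarsl2+/+ (blue) and 3 Tarsl2-/- (red) libraries, with mouse numbers beside the points and the mean ± SD as a black bar. The *Aqp4* points of the genotypes lie far apart, 23.6 to 25.9 against 44.9 to 46.7 CPM, whereas those of *Aqp1*, *Sntb1*, *Sntb2* and *Dag1* overlap.

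The libraries held between 16176591 and 20123767 counts on genes, at which 3 counts correspond to between 0.146 and 0.187 CPM (reads of a gene over all reads of its library, scaled by TMM for library composition). *Tarsl2* itself had 456 to 605 counts in the Tarsl2+/+ and 30 to 40 in the Tarsl2-/- libraries. Muscle genes were abundant, the fast fibre light chain *Mylpf* being at 35769 CPM on average in Tarsl2+/+ muscle. Of 10 photoreceptor genes, looked at because the extraction text of the labels names the retina, 1 (*Rom1*) was tested and the others had at most 0.291 CPM on average in either genotype. The fast fibre gene *Tnnc2* had 2 to 4 counts in every library, although it is normally abundant in fast muscle. All 8 leukocyte markers had negative log2 fold changes, with a median of -0.65. Of these, 5 were past the threshold and all 8 had an unadjusted p under 0.05. The summed level of the list was 1071 to 1246 CPM in Tarsl2+/+ and 569 to 731 CPM in Tarsl2-/- muscle. The 6 fibroblast markers were all negative with 0 past the threshold and 2 at an unadjusted p under 0.05, and the Schwann cell sum of mouse 589 (115 CPM) was above the 24.1 to 65.2 CPM of the other mice.

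*Aqp4* encodes the orthodox water channel of the fast fibre membrane. In the count table it spans 15389394 to 15403684 on chromosome 18 (minus strand, build GRCm38, as for all positions), and its longest coding transcript in GENCODE vM21 has 5 exons and 5054 nt. Its level was 23.9, 25.9 and 23.6 CPM in the Tarsl2+/+ mice 583, 584 and 595. In the Tarsl2-/- mice 588, 589 and 591 it was 46.2, 46.7 and 44.9 CPM. Every Tarsl2-/- mouse was thus above every Tarsl2+/+ mouse, and the gap between the genotypes was far wider than the spread within either. The means were 24.4 ± 1.26 (SD, n = 3) and 45.9 ± 0.936 (SD, n = 3), a log2 fold change of 0.91 (standard error 0.08). The coefficient of variation between mice of a genotype was 5.14% and 2.04%. The biological variation that edgeR estimated for *Aqp4* was 8.18%, and 1.75% of the tested genes had a lower estimate. With each library left out in turn the log2 fold change stayed between 0.88 and 0.96, and *Aqp4* was past the threshold in 6 of 6 fits, at 0.90 without the differently labelled mouse 589. The gene model of the count table has, in total, 1151 nt less exon sequence than that of GENCODE vM21, and the models differ at both ends. That of GENCODE vM21 runs from 15389496 to 15410982. Reads on exon sequence beyond 15403684 were thus not in the count of *Aqp4*.

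The 5 genes whose log2 CPM followed that of *Aqp4* most closely over the 6 libraries, among 12448 genes whose mean log2 CPM reached 1, were *Egln3*, *Gstm5*, *Dnal4*, *Lysmd3* and *E4f1*, with Pearson's r between 0.992 and 0.995. Since the libraries fall into the 2 genotypes for *Aqp4*, this likeness mostly restates that these genes also lay apart between genotypes, and 488 genes had an r over 0.9. The sizes of their differences varied, from a log2 fold change of 0.10 for *Dnal4* to 1.12 for *Egln3*, the prolyl hydroxylase of the hypoxia response, which was past the threshold (adjusted p = 0.000464 by edgeR's quasi-likelihood test).

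Since Aqp4 belongs to fast fibres and is also abundant in astrocytes, markers of both were read beside it. Of 11 fast fibre markers 10 were tested, and 8 of these had a positive log2 fold change, with a median of 0.18. *Actn3*, the Z-disc actinin of fast fibres (log2 fold change 0.69, adjusted p = 0.00807 by edgeR), and *Myh1*, the heavy chain of type IIX fibres (0.59, adjusted p = 0.015), rose. The heavy chain of type IIB fibres, *Myh4*, was at -0.03 (adjusted p = 0.936). In 5 of the 10 tested markers the genotypes did not overlap, as in 24.6% of all tested genes. Of these, *Myh1*, *Actn3*, *Mybpc2* and *Atp2a1* were higher and *Pvalb* was lower in Tarsl2-/- muscle. The summed level of the list was 98731 to 108068 CPM in Tarsl2+/+ and 102900 to 114638 CPM in Tarsl2-/- muscle, and *Tnnc2* was near 0. Much of this sum came from *Mylpf* and *Pvalb*, at 35769 and 30643.5 CPM on average in Tarsl2+/+ muscle. All 10 slow fibre markers had positive values, with a median of 0.41, 0 of them past the threshold, 4 with an unadjusted p under 0.05, and summed levels that overlapped (971 to 1664 against 1302 to 2014 CPM). The part of the fibre type genes and of the lower leukocyte markers in the difference of *Aqp4* was not tested. Of 6 astrocyte markers 2 were tested and 0 were past the threshold, with 0 at an unadjusted p under 0.05, and their summed level was 10.1 to 19.1 CPM in Tarsl2+/+ and 11.7 to 32.4 CPM in Tarsl2-/- muscle. Most of that sum was *Slc1a3*, a glutamate transporter, with 146 to 490 counts per library, the highest in mouse 589 (log2 fold change 0.58, adjusted p = 0.442 by edgeR). The growth factor receptor *Fgfr3* had 23 to 40 counts and the opposite sign (-0.49, adjusted p = 0.296). The other 4 were near 0: the defining gene *Gfap* had 0 to 7 counts, the glutamate transporter *Slc1a2* 1 to 9, the connexin *Gjb6* 0 to 4, and *Kcnj10*, the potassium channel that accompanies Aqp4 in glia, 0 to 3.

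*Aqp1* encodes a constitutively open water channel of endothelium and red cells (chromosome 6, plus strand, 55336432 to 55348555, with 1 annotated transcript of 4 exons). Its level was 151.8, 163.3 and 106.3 CPM in the Tarsl2+/+ mice 583, 584 and 595, and 203.5, 156.8 and 243.0 CPM in the Tarsl2-/- mice 588, 589 and 591. Tarsl2-/- mouse 589 lay within the Tarsl2+/+ range, mouse 591 was the highest of all and Tarsl2+/+ mouse 595 the lowest. The means were 140 ± 30.2 (SD, n = 3) and 201.1 ± 43.1 (SD, n = 3), a log2 fold change of 0.52 (standard error 0.17) that was not past the threshold. It was past it with DESeq2 and without a filter on low counts. Leaving out Tarsl2+/+ mouse 595 lowered the log2 fold change to 0.35 and leaving out Tarsl2-/- mouse 589 raised it to 0.67.

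In bulk muscle, fewer cells of a type and less RNA per cell cannot be told apart, so the cell types known for Aqp1 were read through their markers. All 10 endothelial markers had negative log2 fold changes, with a median of -0.14, and *Cdh5*, the adhesion protein of endothelial junctions, fell (log2 fold change -0.64, adjusted p = 0.00929 by edgeR). Their summed level was 248 to 275 CPM in Tarsl2+/+ and 196 to 254 CPM in Tarsl2-/- muscle. All 7 tested red cell markers, of 9 in the list, were negative too, with a median of -0.87, 0 past the threshold and 6 with an unadjusted p under 0.05. Their summed level was 4749 to 10394 CPM against 4167 to 4537 CPM. The markers of both cell types thus had the opposite sign to *Aqp1*. Of 6 smooth muscle and pericyte markers 2 were positive, with a median of -0.05 and 0 past the threshold. Their sum, 325, 361 and 277 CPM in mice 583, 584 and 595 and 406, 303 and 464 CPM in mice 588, 589 and 591, ranked the mice within each genotype as *Aqp1* did. The endothelial sum (242, 196 and 254 CPM in mice 588, 589 and 591) ranked the Tarsl2-/- mice in that order too. So did the red cell sum (4399, 4167 and 4537 CPM), but neither ranked the Tarsl2+/+ mice as *Aqp1* did. Most of the smooth muscle and pericyte sum came from *Rgs5*, a pericyte gene, with a log2 fold change of 0.35 (adjusted p = 0.235 by edgeR). The part of these cells in the values of *Aqp1* was not tested.

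**Figure D2:**
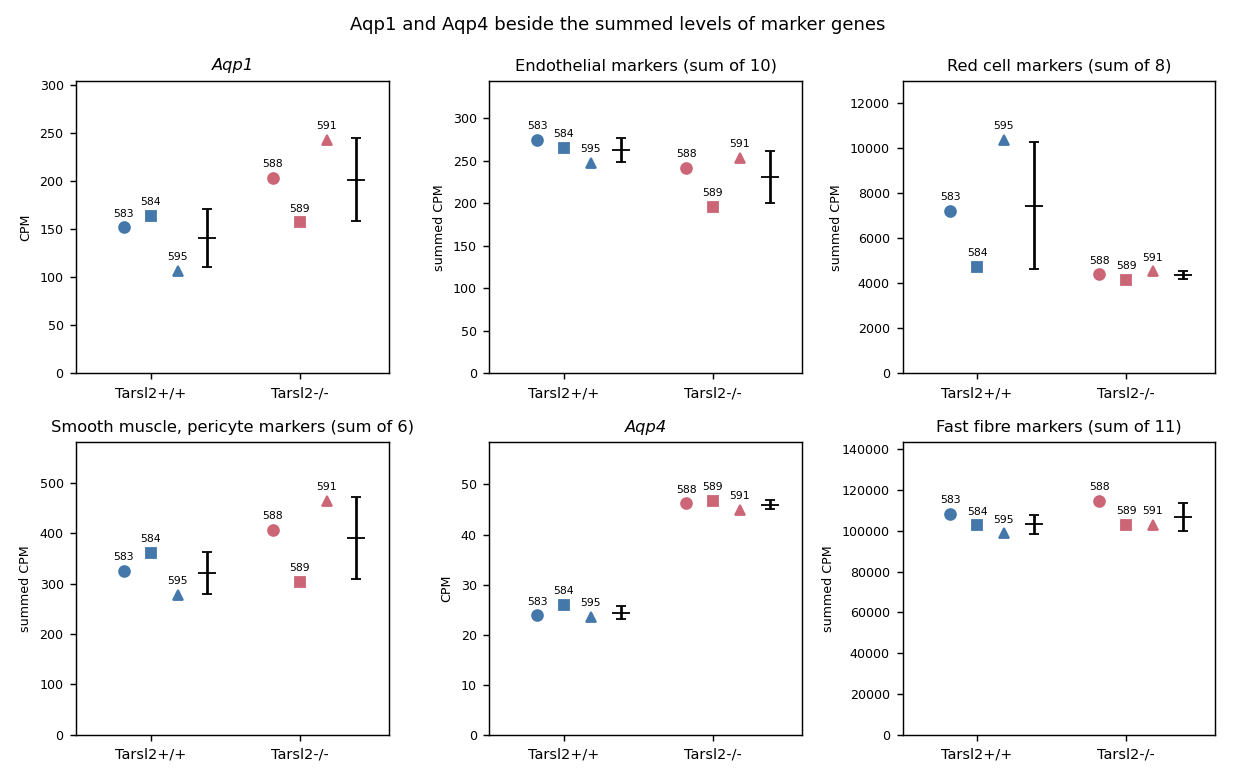
*Aqp1* and *Aqp4* (CPM) beside the summed CPM of endothelial, red cell, smooth muscle and pericyte, and fast fibre markers, 1 point per mouse with its number, in Tarsl2+/+ (blue) and Tarsl2-/- (red) muscle, with the mean ± SD in black. Endothelial and red cell sums are lower on average in Tarsl2-/- muscle. The fast fibre sums of the genotypes overlap, and they mostly reflect the most abundant genes of that list. The pericyte sum orders the mice within a genotype as *Aqp1* does, and the endothelial and red cell sums do so among the Tarsl2-/- mice only.

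Of the other 10 aquaporins, *Aqp7*, the glycerol channel of fat cells, and *Aqp11*, an intracellular channel, had enough counts to be tested. *Aqp7* was at 5.79, 10.4 and 5.09 CPM in Tarsl2+/+ and 7.30, 14.9 and 9.33 CPM in Tarsl2-/- muscle, with overlapping genotypes, and differed by 0.56 on the log2 scale (standard error 0.29, adjusted p = 0.314 by edgeR). *Aqp11* had 14 to 43 counts per library and differed by -0.04 on the log2 scale (standard error 0.38, adjusted p = 0.973), a value that was positive with limma-voom and without Tarsl2+/+ mouse 584. The remaining 8 had between 0 and 8 counts per library, and *Aqp6* and *Aqp12* had 0 counts in every library. Of the 4 aquaporins tested, 1 was past the threshold, which was *Aqp4*.

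*Dmd* encodes dystrophin, the rod that joins actin to dystroglycan (chromosome X, plus strand, 82948870 to 85206141). Its longest coding transcript has 79 exons and 14910 nt, and a pair of shorter ones, with 17 and 18 exons, begin at 85048413. The counts do not separate them. *Dmd* was at 31.6, 23.2 and 28.7 CPM in the Tarsl2+/+ mice 583, 584 and 595, and at 39.7, 32.6 and 36.0 CPM in the Tarsl2-/- mice 588, 589 and 591. The genotypes did not overlap, but only narrowly, the lowest Tarsl2-/- mouse being at 32.6 and the highest Tarsl2+/+ mouse at 31.6 CPM. The means were 27.8 ± 4.30 (SD, n = 3) and 36.1 ± 3.57 (SD, n = 3), a log2 fold change of 0.38 (standard error 0.12). It was not past the threshold, except without a filter on low counts. With Tarsl2+/+ mouse 584 left out the log2 fold change was 0.26.

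*Utrn* encodes utrophin, the paralog of dystrophin that in adult muscle gathers at the neuromuscular junction (chromosome 10, minus strand, 12382188 to 12869365). It was at 26.8, 28.1 and 23.7 CPM in Tarsl2+/+ and 28.4, 32.2 and 29.5 CPM in Tarsl2-/- muscle, in the same order of mice. The groups did not overlap, by a margin of 28.1 against 28.4 CPM. The log2 fold change was 0.20 (standard error 0.10), not past the threshold in any fit, and it was 0.13 without Tarsl2+/+ mouse 595. Of 11 genes of the junction, 10 were tested, 8 were positive and 0 were past the threshold, 1 having an unadjusted p under 0.05, with a median of 0.16. The embryonic receptor subunit *Chrng*, which returns after denervation, was at 0.666 CPM in Tarsl2+/+ and 0.264 CPM in Tarsl2-/- muscle and was not tested. Utrophin is also known to rise in regenerating fibres, and the 6 genes of satellite cells and regeneration had a median of 0.03, with 0 past the threshold and 0 with an unadjusted p under 0.05.

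The full-length muscle dystrophin and the short forms of *Dmd* begin at different starts, and the sequence before them is shown beside those of a gene kept to striated muscle and of a vessel gene. It is given for the 250 bases before the annotated start of 3 of the genes and for an internal start of *Dmd*, from RefSeq on GRCm38.p6. That internal RefSeq start, 85048295, lies before the 85048413 at which the short transcripts begin in GENCODE vM21, so the stretch printed does not reach the latter. In the table of RefSeq starts used here 5 of the 9 genes were matched (*Aqp1*, *Dag1*, *Dmd*, *Sgca* and *Utrn*). Capitals mark E-boxes (CANNTG, the letters bound by MyoD-type factors) and CArG boxes (the letters bound by serum response factor), searched on both strands. The sequences are written 5′ to 3′ on the strand of the gene.
*Dmd*, chrX:82948620-82948869, plus strand: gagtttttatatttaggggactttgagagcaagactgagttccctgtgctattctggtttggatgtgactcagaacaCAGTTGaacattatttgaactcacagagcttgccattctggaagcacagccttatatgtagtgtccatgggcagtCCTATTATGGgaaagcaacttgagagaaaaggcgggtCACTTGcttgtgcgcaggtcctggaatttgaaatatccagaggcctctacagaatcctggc
*Dmd* internal start, chrX:85048045-85048294, plus strand: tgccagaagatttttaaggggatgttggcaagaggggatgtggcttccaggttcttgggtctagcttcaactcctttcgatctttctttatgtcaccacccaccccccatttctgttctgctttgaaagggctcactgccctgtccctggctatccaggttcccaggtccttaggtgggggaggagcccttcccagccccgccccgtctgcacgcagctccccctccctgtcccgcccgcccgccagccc
*Sgca*, chr11:94976328-94976577, minus strand: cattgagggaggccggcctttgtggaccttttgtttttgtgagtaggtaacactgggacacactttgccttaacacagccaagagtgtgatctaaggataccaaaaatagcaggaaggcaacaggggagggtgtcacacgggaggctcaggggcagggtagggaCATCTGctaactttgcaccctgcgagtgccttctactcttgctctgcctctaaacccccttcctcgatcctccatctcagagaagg
*Aqp1*, chr6:55336049-55336298, plus strand: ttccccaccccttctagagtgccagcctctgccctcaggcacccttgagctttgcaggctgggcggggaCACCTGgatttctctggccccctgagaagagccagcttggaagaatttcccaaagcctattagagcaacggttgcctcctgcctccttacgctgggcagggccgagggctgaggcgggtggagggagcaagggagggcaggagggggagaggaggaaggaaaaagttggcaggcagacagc
The first *Dmd* stretch, before the start of the full-length muscle dystrophin, held a CArG box whose first base lies 98 bases before the start and E-boxes at 173 and 61 bases. Of all 32851 annotated starts, 1.47% held a CArG box and 66.2% an E-box in the 250 bases before them. The same stretch held a TATA box (TATAAA) and a MEF2 site at 245 and 244 bases before the start, which overlap each other, and 12.4% and 2.92% of all starts held these. The internal *Dmd* start held neither an E-box nor a CArG box but 3 GC boxes (GGGCGG), which 32.7% of starts had, and its GC content was 60.0%, against 45.2% for the first and a median of 52.4% over all starts. *Sgca* and *Aqp1* each held 1 E-box, at 86 and 181 bases. These matches describe letters, and no binding was measured.

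*Dtna* encodes alpha-dystrobrevin, which binds dystrophin and carries syntrophins (chromosome 18, plus strand, 23415135 to 23659715). It was at 46.4, 46.3 and 44.3 CPM in the Tarsl2+/+ mice 583, 584 and 595 and at 56.1, 52.6 and 54.2 CPM in the Tarsl2-/- mice 588, 589 and 591. The groups were clearly apart, and the difference was small and even: 45.6 ± 1.21 against 54.3 ± 1.72 CPM (SD, n = 3), a log2 fold change of 0.25 (standard error 0.08) that lay between 0.23 and 0.28 with any 1 library left out. Only 0.637% of the tested genes had a lower estimate of variation between mice. It was not past the threshold in any fit. Beta-dystrobrevin, *Dtnb*, was expressed at 1.89 and 2.03 CPM, and its difference on the log2 scale was 0.11 (standard error 0.25, adjusted p = 0.852 by edgeR).

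Syntrophins are the adaptors that carry a PDZ domain. *Sntb1*, beta-1-syntrophin (chromosome 15, minus strand, 55638843 to 55906949), was at 2.34, 3.77 and 1.21 CPM in the Tarsl2+/+ mice 583, 584 and 595, from 40, 71 and 23 counts. In the Tarsl2-/- mice 588, 589 and 591 it was at 3.46, 6.42 and 6.51 CPM, from 62, 103 and 134 counts. Mouse 588 thus lay below Tarsl2+/+ mouse 584, and the coefficient of variation was 52.7% in Tarsl2+/+ and 31.8% in Tarsl2-/- muscle. The log2 fold change was 1.16 (standard error 0.35), larger than that of *Aqp4* but with a larger error. It was not past the threshold in the fit over 15075 genes. It was past it with DESeq2, without a filter on low counts and without Tarsl2+/+ mouse 584 (log2 fold change 1.64), and it was 0.83 without Tarsl2+/+ mouse 595. The gene model behind these counts lacked 2455 nt of exon sequence that GENCODE vM21 gives the gene, at its 3′ end, so that the counts come from the remaining exons.

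*Sntb2*, beta-2-syntrophin, which is enriched at the neuromuscular junction (chromosome 8, plus strand, 106935750 to 107019714), was far steadier, at 22.4, 23.8 and 23.0 CPM in Tarsl2+/+ and 23.3, 24.5 and 26.2 CPM in Tarsl2-/- muscle. The groups overlapped and the log2 fold change was 0.09 (standard error 0.09). The gamma-syntrophins, known mainly from the nervous system, were near the limit of detection, *Sntg2* having 2 to 20 counts per library (log2 fold change 1.00, standard error 0.48, adjusted p = 0.279 by edgeR) and *Sntg1* 0 to 4.

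*Dag1* encodes dystroglycan, the precursor that is cut into the laminin-binding alpha and the membrane-spanning beta subunit (chromosome 9, minus strand, 108204634 to 108263958). It was at 71.0, 86.5 and 65.8 CPM in Tarsl2+/+ and 72.5, 80.0 and 72.3 CPM in Tarsl2-/- muscle, so that the Tarsl2-/- values lay within the Tarsl2+/+ range. On the log2 scale the difference was 0.00895 (standard error 0.11). It was the smallest of the 9 and changed sign with upper quartile scaling and with 3 of the 6 libraries left out in turn. Alpha-dystroglycan binds laminin only through sugar chains added by a set of glycosyltransferases. Of 19 such genes 17 were tested and 0 were past the threshold, with 3 at an unadjusted p under 0.05 and a median of -0.09. Of 10 laminin chains and other matrix ligands, 0 were past the threshold and 4 had an unadjusted p under 0.05. Their median was -0.09 and their range from -0.42 for *Agrn*, agrin of the junction (adjusted p = 0.240 by edgeR), to 0.41 for *Lama5* (adjusted p = 0.210).

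*Sgca* encodes alpha-sarcoglycan, which is known from striated muscle (chromosome 11, minus strand, 94962791 to 94976327). Its level was 73.7, 83.6 and 74.8 CPM in the Tarsl2+/+ mice 583, 584 and 595 and 95.3, 90.1 and 88.6 CPM in the Tarsl2-/- mice 588, 589 and 591. The groups did not overlap, with 77.3 ± 5.41 against 91.3 ± 3.49 CPM (SD, n = 3) and a difference on the log2 scale of 0.24 (standard error 0.09) that was not past the threshold in any fit. *Sgcb* and *Sgcd*, its partners beta- and delta-sarcoglycan, differed by 0.02 (adjusted p = 0.946 by edgeR) and by 0.10 (adjusted p = 0.785) on the log2 scale. *Sgce*, epsilon-sarcoglycan, which many other tissues express, was at -0.07 (adjusted p = 0.771), and sarcospan, *Sspn*, at 0.16 (adjusted p = 0.482). *Sgcz* had 0 counts in every library.

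Over the whole complex, 15 of 17 genes were tested and 0 were past the threshold by edgeR, with 5 at an unadjusted p under 0.05. Such a p was found for 2983 of all 15075 tested genes. DESeq2 called 1 (*Sntb1*), limma-voom 0. Of the 15, 14 had a positive log2 fold change, where 7603 of all 15075 tested genes had. The 15 include *Dmd*, *Utrn*, *Dag1*, *Dtna*, *Sntb1*, *Sntb2* and *Sgca*, all positive and chosen with their differences known. The count is thus partly set by that choice and describes the list only. With upper quartile scaling 12 of the 15 were positive, *Dag1* and *Sgcb* being the genes that turned, and with 1 library left out 12 to 14 were. The median was 0.16.

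**Figure D3:**
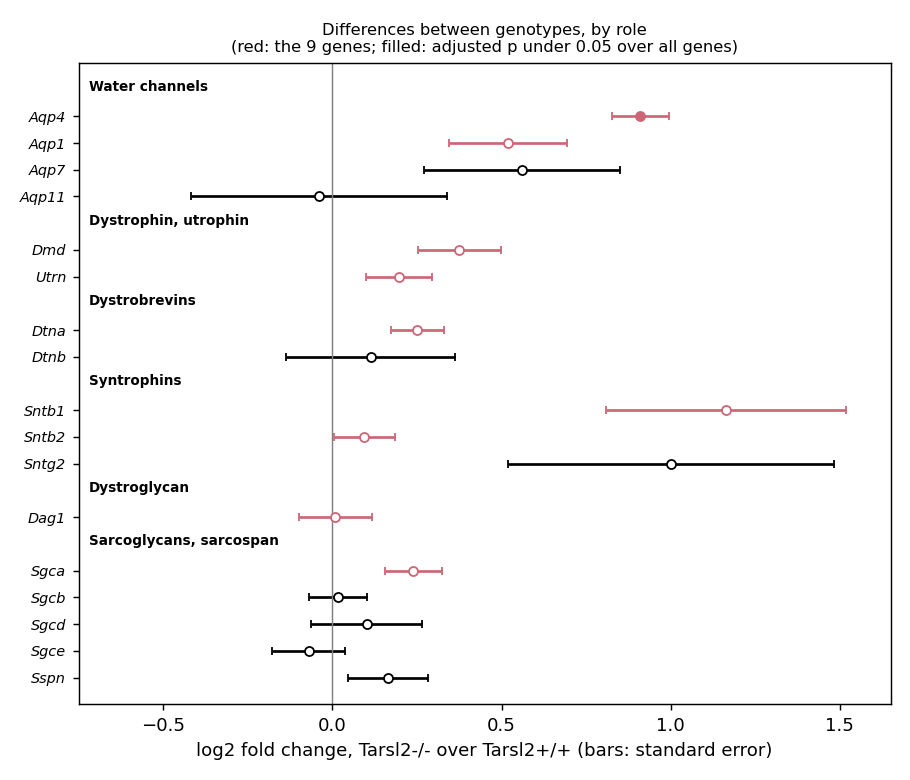
Log2 fold change (horizontal axis, Tarsl2-/- over Tarsl2+/+, with its standard error) of tested aquaporins and dystrophin complex genes named in the text, grouped by role. Red marks the 9 genes and a filled point an adjusted p under 0.05 over all genes, which *Aqp4* alone had, while the largest value, 1.16 for *Sntb1*, carries a standard error of 0.35.

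Proteins that the complex binds in the cytoplasm or membrane were read from a list of 11, of which 10 were tested and 8 were positive, with a median of 0.21. *Des*, desmin of the intermediate filaments that connect Z-discs to the membrane, rose from 891 ± 41.1 to 1261 ± 45.8 CPM (SD, n = 3), or 0.50 on the log2 scale (standard error 0.09, adjusted p = 0.0196 by edgeR). *Plec*, plectin, which ties desmin to dystrophin, was at 0.36 (adjusted p = 0.0676). The sodium channel *Scn4a*, which binds syntrophins, was at 0.37 (adjusted p = 0.103), and *Nos1*, the nitric oxide synthase held at the complex, at -0.07 (adjusted p = 0.890). The lowest was the lipid transporter *Abca1*, at -0.35 (adjusted p = 0.083). Of 9 genes of the integrin adhesion complex, the other laminin receptor of the fibre, 0 were past the threshold and 0 had an unadjusted p under 0.05. Their median was -0.04, with *Ilk* highest (0.58, adjusted p = 0.363) and *Itgb1* lowest (-0.12, adjusted p = 0.541). *Ilk* had only 13 to 33 counts per library and a standard error of 0.33.

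Levels of different genes were compared as CPM per kilobase of the gene model, since long genes collect more reads per transcript. In Tarsl2+/+ muscle *Aqp1* was highest of the 9 at 53.5 ± 11.5 CPM per kilobase (SD, n = 3), followed by *Sgca* at 44.6 ± 3.12, *Dag1* at 11.7 ± 1.69 and *Aqp4* at 4.81 ± 0.247. Below these came *Dtna* at 2.70 ± 0.0715, *Sntb2* at 2.23 ± 0.0654, *Utrn* at 1.53 ± 0.132, *Dmd* at 1.17 ± 0.181 and *Sntb1* at 0.850 ± 0.448 CPM per kilobase. The values of the mice did not overlap between neighbours in this order, apart from *Aqp1* with *Sgca* and *Dmd* with *Sntb1*. In Tarsl2-/- muscle *Aqp4* was at 9.04 ± 0.184 CPM per kilobase, still below the lowest mouse for *Dag1* (11.4), and *Sntb1*, *Utrn* and *Dmd* lay between 1.20 and 2.27 with overlap. The order rests on the length used. With the longest coding transcript in place of the gene model, *Dtna*, whose model of 16930 nt joins many isoforms, was at 7.25 ± 0.192 CPM per kilobase in Tarsl2+/+ muscle and above *Aqp4* (4.83 ± 0.248), but below it in Tarsl2-/- muscle (8.63 ± 0.273 against 9.09 ± 0.185).

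**Figure D4:**
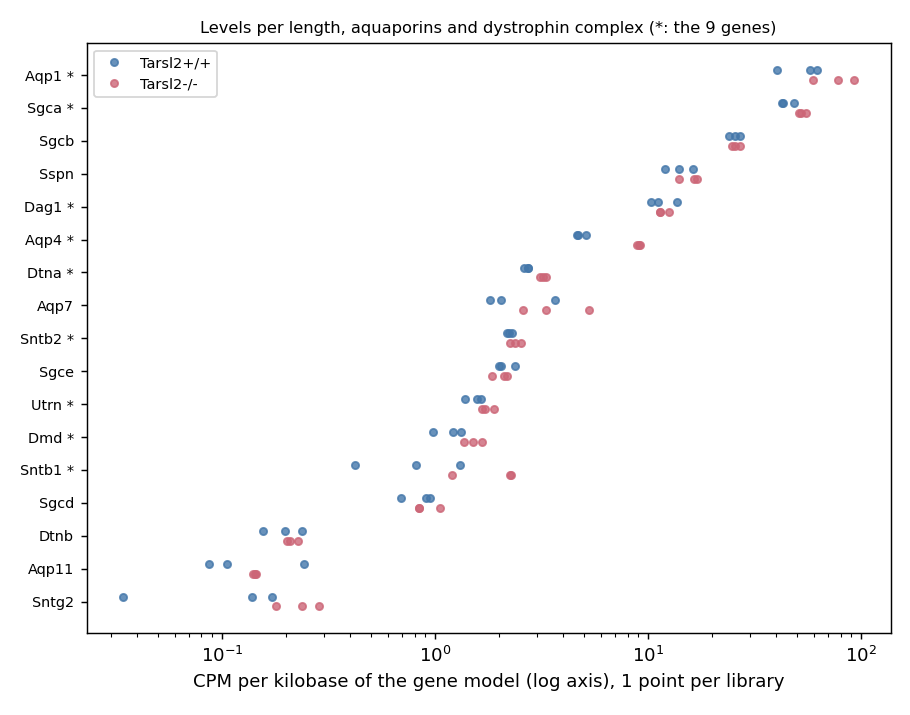
CPM per kilobase of the gene model (horizontal log axis) for tested genes of both families named in the text, 1 point per library, Tarsl2+/+ in blue and Tarsl2-/- in red, with the 9 genes starred. *Aqp1* and *Sgca* lie at the top and *Dmd*, *Utrn* and *Sntb1* between 0.421 and 2.27, and the *Aqp4* points move from at most 5.09 to at least 8.84.

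The weight of single mice differed between the genes. Over the fits that each left out 1 library, *Aqp4* ran from 0.88 to 0.96, *Dtna* from 0.23 to 0.28 and *Sgca* from 0.20 to 0.30, whereas *Sntb1* ran from 0.83 to 1.64 and *Aqp1* from 0.35 to 0.67. For *Aqp4*, *Aqp1*, *Sntb1*, *Utrn*, *Dtna* and *Dag1* the lowest value came without Tarsl2+/+ mouse 595. None of the 9 shares more than 0.53% of its exon bases with another annotated gene, *Dtna* with the antisense *Gm47898* being the only overlap.

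**Figure D5:**
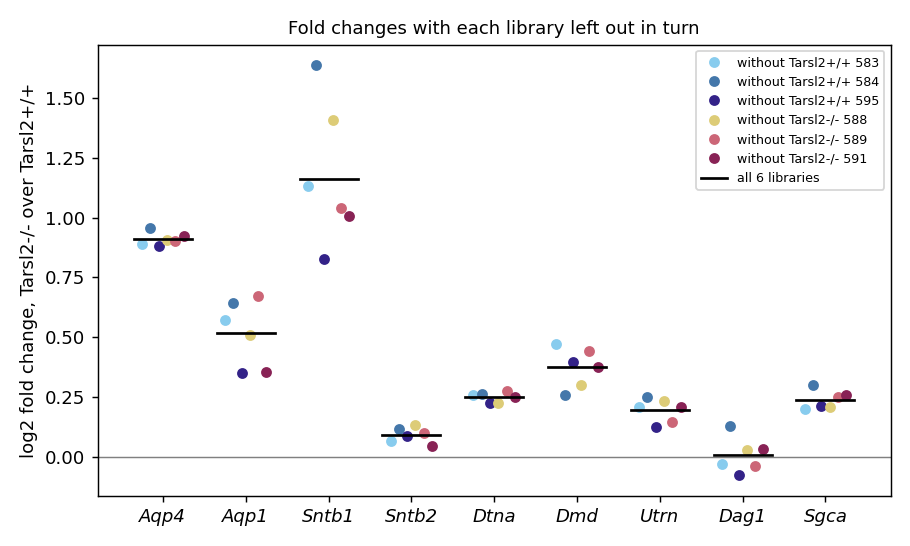
Log2 fold change (vertical axis, Tarsl2-/- over Tarsl2+/+) of the 9 genes with all 6 libraries (black bars) and with each library left out in turn (coloured points). The points of *Aqp4* lie between 0.88 and 0.96, those of *Sntb1* between 0.83 and 1.64, and those of *Dag1* on both sides of 0.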

How the data were processed

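RNA-seq was performed on muscle of 3 Tarsl2+/+ and 3 Tarsl2-/- mice, grouped by the genotype in the sample labels. The authors deposited raw, whole-number counts of reads per gene, without normalization. Their methods describe stranded mRNA libraries, paired-end reads and HISAT2 on mm10 (GRCm38), whereas the submitters' processing notes name Bowtie 0.12.2 and mm8. The coordinates of the table are those of GRCm38. The counting tool, annotation and strand setting are not given in the sources used here.

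Genes were kept by filterByExpr (minimum count 10, minimum total count 15), normalised with TMM, and compared by the quasi-likelihood test of edgeR 4.0.16 (R 4.3.3) with genotype as the only factor. Benjamini-Hochberg adjustment ran over 15075 genes with a threshold of 0.05. Standard errors were derived from each log2 fold change and its F statistic. CPM values use TMM-scaled library sizes. The procedure was tested on simulated data. The 9 genes and the gene lists were chosen with earlier results of these data known. Named were the 9 genes, the tested genes of their families, and in other pathway lists the genes past the threshold and the highest and lowest. Values singled out beyond these, such as *Tnnc2*, *Rgs5*, *Plec*, *Scn4a*, *Nos1*, *Chrng*, *Rom1* and *Myh4*, were chosen after their values were seen. Some genes that this rule names are counted in their lists but not reported here by name. The marker *Ahsp* did not match the table. Gene models were read from GENCODE vM21 and starts from RefSeq. Alternatives were DESeq2 1.42.0, limma-voom (limma 3.58.1), RLE and upper quartile scaling, other filters on low counts, and each library left out. Depth and replicate number (3 against 3) limit the precision. The p-values of edgeR set the genotype difference against a variation between mice that is estimated with information from all tested genes.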

Additional observations from a re-analysis of the deposited data

How the results depend on the processing

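No paired analysis was run because the labels give no litter or other pairing of the mice. Of 108 values of the 9 genes under the alternatives, 98 kept their direction and their side of the threshold and 6 passed it where the fit reported had not, *Aqp1* with DESeq2 and without the filter on low counts, *Sntb1* with these and without Tarsl2+/+ replicate 584, and *Dmd* without the filter. The other 4 were *Dag1*, whose log2 fold change turned to -0.0129 with upper quartile scaling and ranged from -0.0747 to 0.13 over the fits that each left out 1 replicate, being -0.0282, -0.0747 and -0.0382 without Tarsl2+/+ replicates 583 and 595 and Tarsl2-/- replicate 589. Of the 9 genes, 3 were past the threshold with DESeq2, 4 without the filter and from 1 to 2 over the fits that left out a replicate. Of the dystrophin complex genes, 1, 2 and from 0 to 1 were. Over all genes, 342 were past the threshold in the fit reported, 719 with DESeq2, 1437 without the filter, and from 81 (without Tarsl2+/+ replicate 583) to 625 (without Tarsl2+/+ replicate 584) with a replicate left out. The cause was not tested, and the fit without the filter covers 25553 genes. *Sntb1*, with 23 to 134 counts per library, had the fewest counts of the 9. The biological variation that edgeR estimated for it was 28.4%, and 97.0% of the tested genes had a lower estimate.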
